A study of Mus musculus with 8 samples.

Results

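The genes described here encode the receptors, and the proteins that assist them, by which macrophages take up plasma proteins, lipoproteins, haemoglobin with its haem, and dying cells. They are 10 genes picked by symbol out of the 35583 in the deposited count table: the receptors Lrp1, Sorl1, Stab1, Cd36, Msr1, Colec12, Mertk and Timd4, the chaperone Lrpap1 and the adaptor Dab2. The rule selects rows by name and uses no measured value, but the members were chosen with earlier results of these data known. The question addressed was whether microglia that had taken up a plasma label carried more or less mRNA for these genes than microglia that had not.

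Microglia are the macrophages that live in the brain, and here they were isolated by sorting from hypothalamus. The animals were young mice of wild-type genotype that had received plasma protein carrying a dye, with an interval of 20 hours between injection and collection. The injection was common to both groups: 4 libraries held cells positive for the plasma label and 4 held cells negative for it, and no uninjected mice are part of the comparison. Strain, sex, exact age, the route of injection and the composition of the plasma protein were not given in the sources used here. Libraries followed Smart-seq2, which reads whole transcripts from little RNA and carries no molecular identifiers. Nothing in the labels says whether the libraries came from separate animals, so the p-values below measure only the spread between these libraries, which may be technical.

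Macrophages take in extracellular protein by several routes. Receptors of the low-density lipoprotein receptor family bind lipoproteins and many protease complexes, reach the cell surface with the help of a chaperone in the endoplasmic reticulum, and are gathered by adaptors into clathrin-coated pits. Scavenger receptors bind modified lipoproteins and other polyanionic ligands, while a further set recognises phosphatidylserine exposed on dying cells, directly or through a bridging ligand. In the brain, Mertk is known for its part in the clearance of apoptotic cells by microglia.

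The smallest library held 2963094 counts and the largest 21422738. A gene with 3 counts or fewer was treated as not seen, a floor that corresponded to 0.133 to 1.01 CPM (counts scaled to library size, scaled with TMM factors). The summed level of 10 microglial markers was 67573 to 80195 CPM in the plasma-negative and 75285 to 81248 CPM in the plasma-positive libraries, so the defining markers of the labelled cell type were present. Of the plasma-negative sums, 3 (67573 to 69419 CPM) lay below every plasma-positive one, and edgeR called 2 of the 10 markers, Csf1r and Olfml3, higher in plasma-positive libraries. Of 10 border-associated macrophage markers, 5 passed the floor in any library, with sums of 0.881 to 3.61 CPM in the plasma-negative and 1.76 to 16.5 CPM in the plasma-positive libraries. The defining genes Cd163, Lyve1, F13a1, Cd209f and Siglec1 were at 0 counts throughout. These are bulk samples, in which fewer cells of a type and less RNA per cell cannot be told apart.

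Per unit of length, Mertk stood highest of the 10 genes and the levels spanned a wide range. Mean RPKM (the deposited values, scaled to both exon length and library size) over the 8 libraries were 107 for Mertk (range 91.2 to 117) and 34.6 for Lrpap1 (28.4 to 44.6). They were 16.3 for Stab1 (13.9 to 18.5) and 9.58 for Lrp1 (8.67 to 11.1), so the ranges of these neighbours did not overlap. Sorl1 followed at 2.84 RPKM (1.26 to 4.99), below Lrp1 in every library. Dab2, at 1.21 RPKM (0.224 to 2.30), overlapped the range of Sorl1. Cd36, Msr1 and Colec12 had means of 0.194, 0.122 and 0.0060 RPKM, each with libraries at 0, and Timd4 was at 0 in all 8 libraries. Microglia of both groups thus carried readily counted mRNA for Mertk, Lrpap1, Stab1 and Lrp1, and little or none for Cd36, Msr1, Colec12 and Timd4.

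**Figure D1:**
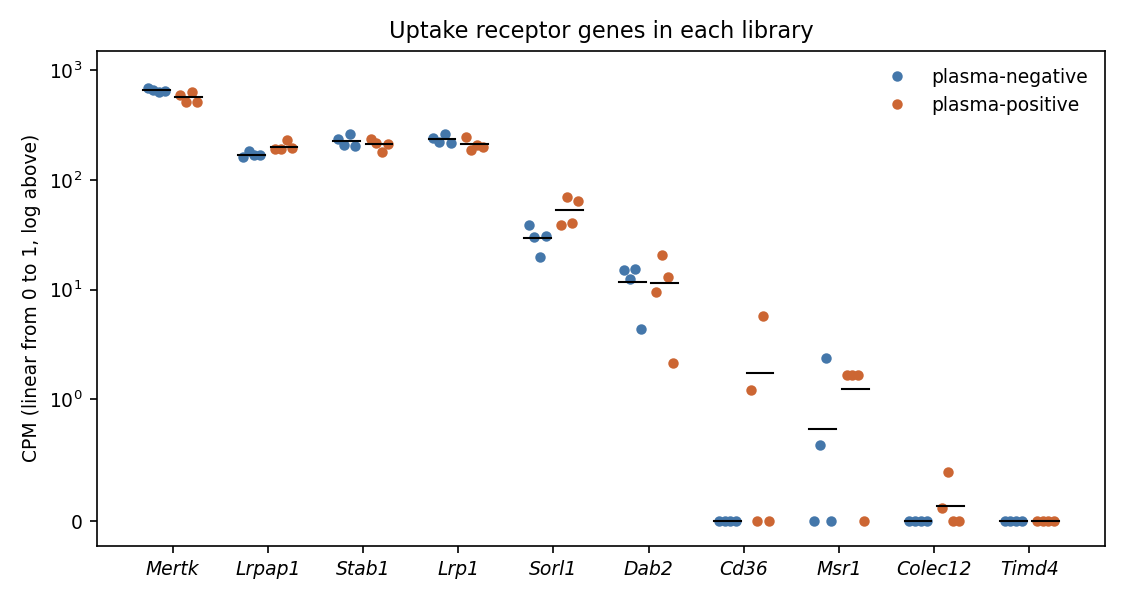
CPM of each of the 10 genes (vertical axis, linear from 0 to 1 and logarithmic above) in the 4 plasma-negative and 4 plasma-positive libraries, 1 point per library, with a bar at each group mean. Points of the 2 groups lie close together for Mertk, Lrpap1, Stab1 and Lrp1, while Timd4 lies at 0 throughout.

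The promoters of 4 members are shown because they span the range of levels, from the highest (Mertk) through Stab1 and Sorl1 to the gene with no count (Timd4). RefSeq (GRCm38.p6) gave a promoter for 8 of the 10 genes. Each sequence is the 250 bases before the annotated start, and the 50 bases after it were left out. Capitals mark matches on either strand to GAGGAA (the core of PU.1 sites), CACGTG (an E-box) or GGGCGG (a GC box, written CCGCCC when on the other strand), which do not overlap here.
Mertk chr2:128698665-128698914, plus strand: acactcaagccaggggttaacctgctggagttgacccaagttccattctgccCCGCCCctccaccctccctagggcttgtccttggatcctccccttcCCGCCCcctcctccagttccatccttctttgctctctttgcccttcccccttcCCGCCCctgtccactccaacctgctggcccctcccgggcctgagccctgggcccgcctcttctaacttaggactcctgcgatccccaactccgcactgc
Stab1 chr14:31168642-31168891, minus strand: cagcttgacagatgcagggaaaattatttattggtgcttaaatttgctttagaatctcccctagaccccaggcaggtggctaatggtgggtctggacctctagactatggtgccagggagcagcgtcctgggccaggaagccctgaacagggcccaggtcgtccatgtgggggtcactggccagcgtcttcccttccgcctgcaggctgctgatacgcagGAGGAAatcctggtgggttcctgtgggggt
Sorl1 chr9:42124298-42124547, minus strand: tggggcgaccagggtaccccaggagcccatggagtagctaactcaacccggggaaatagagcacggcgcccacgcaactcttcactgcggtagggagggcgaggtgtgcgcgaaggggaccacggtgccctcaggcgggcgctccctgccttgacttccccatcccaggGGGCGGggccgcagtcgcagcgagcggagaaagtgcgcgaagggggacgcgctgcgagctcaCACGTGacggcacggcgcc
Timd4 chr11:46810549-46810798, plus strand: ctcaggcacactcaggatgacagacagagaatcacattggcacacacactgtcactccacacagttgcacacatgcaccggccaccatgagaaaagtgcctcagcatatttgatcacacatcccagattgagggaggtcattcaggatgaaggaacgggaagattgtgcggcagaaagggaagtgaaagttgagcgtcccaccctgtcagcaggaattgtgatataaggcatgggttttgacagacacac
Mertk held 3 GC boxes, Stab1 held 1 GAGGAA, Sorl1 held 1 GC box and 1 E-box, and Timd4 held none of the 3 motifs. Among 32851 RefSeq promoter windows of the same length, 23.3% held GAGGAA, 6.02% CACGTG and 32.7% GGGCGG. A match is a description of these letters, not evidence of binding.

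Between plasma-positive and plasma-negative microglia, none of the 10 genes passed the test. Of the 10, 7 had counts enough to be tested with edgeR's quasi-likelihood test, adjusted by the Benjamini-Hochberg method over 13277 genes. None of the 7 had an adjusted p under 0.05. Over all tested genes, 1.41% were called (187 genes, 112 higher and 75 lower in plasma-positive microglia). That split was 64 higher and 163 lower when libraries were scaled by their totals only, and 388 and 59 by limma on log2(RPKM + 1), which changes both the tool and the scale. The 7 fold changes had a median of −0.07 on the log2 scale, beside 0.01 over all tested genes (middle 50% from −0.41 to 0.35), with 3 positive and 4 negative, where 50.4% of all tested genes were positive. With the correction for length and GC content, 6 were positive and 1 negative, with a median of 0.10 beside −0.06 over all genes.

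At an unadjusted p under 0.05 stood 2 of the 7, Mertk and Sorl1, against 13.8% of all tested genes. The plasma-positive and plasma-negative libraries did not overlap in CPM for 3 of the 7 (Mertk, Lrpap1 and Sorl1), against 10.3% of all tested genes. Mertk was lower, and Lrpap1 and Sorl1 were higher, in the plasma-positive libraries. In RPKM the groups of Mertk overlapped, and those of Lrpap1 and Sorl1 did not.

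Lrp1 is a large endocytic receptor with many ligands, among them lipoproteins and protease-inhibitor complexes. Its gene (ENSMUSG00000040249, GRCm38 chromosome 10, 127538161 to 127621148, minus strand) was counted at 238, 223, 262 and 215 CPM in plasma-negative libraries 1 to 4 and at 247, 189, 207 and 201 CPM in plasma-positive libraries 1 to 4. The groups overlapped, and the plasma-positive library 1 lay above 3 of the 4 plasma-negative ones. Mean levels were 234 ± 20.7 and 211 ± 25.1 CPM (SD, n = 4 each). The fold change was 0.899 (95% interval 0.748 to 1.08; log2 −0.15, SE 0.12, edgeR adjusted p = 0.652). The interval runs from a decrease to 0.748 of the plasma-negative level to an increase to 1.08 of it. With length and GC correction the sign turned (log2 0.28).

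Sorl1 encodes a sorting receptor that shares domains with the low-density lipoprotein receptor family and moves cargo between endosomes and the Golgi. Its gene (ENSMUSG00000049313, chromosome 9, 41964720 to 42124297, minus strand) was at 38.7, 30.0, 19.6 and 31.0 CPM in plasma-negative libraries 1 to 4 and at 38.8, 69.4, 40.5 and 64.7 CPM in plasma-positive libraries 1 to 4. Plasma-positive libraries 2 and 4 were highest, while plasma-positive library 1 and plasma-negative library 1 had nearly the same level. Means were 29.8 ± 7.83 and 53.4 ± 16.0 CPM (SD, n = 4 each). The fold change was 1.79 (95% interval 1.16 to 2.77; log2 0.84, SE 0.29). With an unadjusted p of 0.0132 and an adjusted p of 0.202 by edgeR's quasi-likelihood test, Sorl1 did not pass. Over 25 alternatives its log2 fold change ran from 0.54 (libraries thinned to the smallest total) to 1.09 (length and GC correction), none of them called. The 2 libraries highest in Sorl1 were also the highest in Mrc1, a border-associated macrophage marker, at 12.1 and 15.3 CPM against 0 to 2.36 CPM in the others. Of the other 9 genes of that list, Pf4 was at 0.661 and 0 CPM, Cbr2 at 0 and 0.447 CPM and Ms4a7 at 0 and 0.782 CPM in plasma-positive libraries 2 and 4. The remaining 6 (Cd163, Lyve1, F13a1, Cd209f, Siglec1 and Clec12a) were at 0 in both. Plasma-positive library 2 was in addition the highest in the sum of 10 neuron markers, at 324 CPM, where plasma-positive library 4 had 10.6 CPM. It was also the highest in the sum of 10 oligodendrocyte markers, at 569 CPM. The oligodendrocyte sums were 158 to 230.4 CPM in plasma-negative and 224 to 569 CPM in plasma-positive libraries, with all 10 markers above the floor and 1 called higher. The part of border-associated macrophages, neurons and oligodendrocytes in the Sorl1 values was not tested.

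Lrpap1, the receptor-associated protein, is a chaperone of the endoplasmic reticulum that keeps Lrp1 and its relatives from binding ligands before they reach the surface. Its gene (ENSMUSG00000029103, chromosome 5, 35091501 to 35105766, minus strand) was at 160.1, 181, 169.7 and 169 CPM in plasma-negative libraries 1 to 4 and at 190.2, 193, 228 and 193 CPM in plasma-positive libraries 1 to 4. All 4 plasma-positive libraries lay above all 4 plasma-negative ones, and plasma-positive library 3 stood apart at the top. Means were 169.9 ± 8.70 and 201 ± 18.1 CPM (SD, n = 4 each), a fold change of 1.18 (95% interval 0.994 to 1.41; log2 0.24, SE 0.12). The edgeR adjusted p was 0.380, so the difference did not pass the test. With length and GC correction the log2 fold change was 0.09. Plasma-positive library 3 was also the highest in the sum of 10 monocyte and neutrophil markers, at 525 CPM. The part of such cells in the Lrpap1 values was not tested.

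Since Lrpap1 serves Lrp1, the ratio of their deposited RPKM values was also taken in each library. It was 2.89, 3.51, 2.79 and 3.38 in plasma-negative libraries 1 to 4 and 3.32, 4.39, 4.74 and 4.15 in plasma-positive libraries 1 to 4. Plasma-positive library 1 fell within the plasma-negative range and the other 3 lay above it. The means were 3.14 ± 0.353 and 4.15 ± 0.607 (SD, n = 4 each). The ratio is given as a description, and it sets a gene with 4116 bases of merged exon against one with 17717. With the length and GC correction, the log2 fold change of Lrp1 (0.28) was above that of Lrpap1 (0.09), so the direction of the difference in this ratio turned.

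Dab2 is a clathrin adaptor that binds the cytoplasmic tails of lipoprotein receptors. Its gene (ENSMUSG00000022150, chromosome 15, 6299788 to 6440712, plus strand) was at 15.1, 12.6, 15.3 and 4.37 CPM in plasma-negative libraries 1 to 4 and at 9.57, 20.8, 12.99 and 2.12 CPM in plasma-positive libraries 1 to 4. The lowest library of each group was the one numbered 4, with 13 and 19 counts, and the groups overlapped. Means were 11.8 ± 5.13 and 11.4 ± 7.75 CPM (SD, n = 4 each). The log2 fold change was −0.07 (SE 0.63, 95% interval −1.45 to 1.32; edgeR adjusted p = 0.977), a width that leaves a doubling in either direction undetectable in these libraries. Its sign was positive when the libraries numbered 4 were both omitted (log2 0.01).

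Stab1, a scavenger receptor that takes up modified lipoproteins and other ligands for lysosomal breakdown, was the member of that class with the highest level. Its gene (ENSMUSG00000042286, chromosome 14, 31139013 to 31168641, minus strand) was at 236, 209, 263 and 205 CPM in plasma-negative libraries 1 to 4 and at 236, 214, 178 and 213 CPM in plasma-positive libraries 1 to 4. The groups overlapped over most of their range, with the highest library plasma-negative and the lowest plasma-positive. Means were 228 ± 27.1 and 210.2 ± 23.9 CPM (SD, n = 4 each). The fold change was 0.920 (95% interval 0.757 to 1.12; log2 −0.12, SE 0.13, edgeR adjusted p = 0.757). With length and GC correction the sign turned (log2 0.10).

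The other scavenger receptors were near or at 0. Msr1, the class A macrophage scavenger receptor (ENSMUSG00000025044, chromosome 8, 39581685 to 39642673, minus strand), had 0, 10, 41 and 0 counts in plasma-negative libraries 1 to 4 and 15, 33, 33 and 0 counts in plasma-positive libraries 1 to 4. Its counts passed the floor in 5 of the 8 libraries and were 0 in the largest library (plasma-negative 1) and in both libraries numbered 4. The log2 fold change of 0.67 had an SE of 1.53 (95% interval −2.67 to 4.00; edgeR adjusted p = 0.910), an interval that spans large changes in either direction. Leaving out 1 library gave values from 0.25 (without plasma-negative library 1) to 2.38 (without plasma-negative library 3), none of them called.

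Cd36, a scavenger receptor and fatty acid transporter (ENSMUSG00000002944, chromosome 5, 17781690 to 17888801, minus strand), was at 0 in each of the 4 plasma-negative libraries, as it was in plasma-positive libraries 2 and 4. Plasma-positive library 1 had 11 counts (1.21 CPM) and plasma-positive library 3 had 113 counts (5.74 CPM). Cd36 did not pass the expression filter and was not tested. Plasma-positive library 3 was also the library with the highest sum of 10 monocyte and neutrophil markers, 525 CPM, of which S100a8 made up 299.9 CPM and S100a9 171 CPM. Of those 10 markers 8 passed the floor in any library, with sums of 0.291 to 14.9 CPM in the plasma-negative and 0 to 1.93 CPM in the other 3 plasma-positive libraries. Plac8 and Retnlg did not pass it. Plasma-positive library 3 also had the highest sum of 10 pericyte and fibroblast markers, 19.5 CPM, and the lowest sum of 10 endothelial markers, 22.3 CPM. Plasma-positive library 1 had 0.220 CPM of monocyte and neutrophil markers and 0.550 CPM of pericyte and fibroblast markers. Its endothelial sum, 65.1 CPM, was the highest. The part of these cell types in the Cd36 counts was not tested. Leaving plasma-positive library 3 aside, the remaining 3 plasma-positive libraries held 11 Cd36 counts.

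Colec12, a scavenger receptor with a collectin-like lectin domain (ENSMUSG00000036103, chromosome 18, 9707595 to 9882644, plus strand), was without a count in the plasma-negative group. Plasma-positive libraries 1 and 2 had 1 and 8 counts, and the other two had 0. It passed the floor in 1 library and was not tested.

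**Figure D2:**
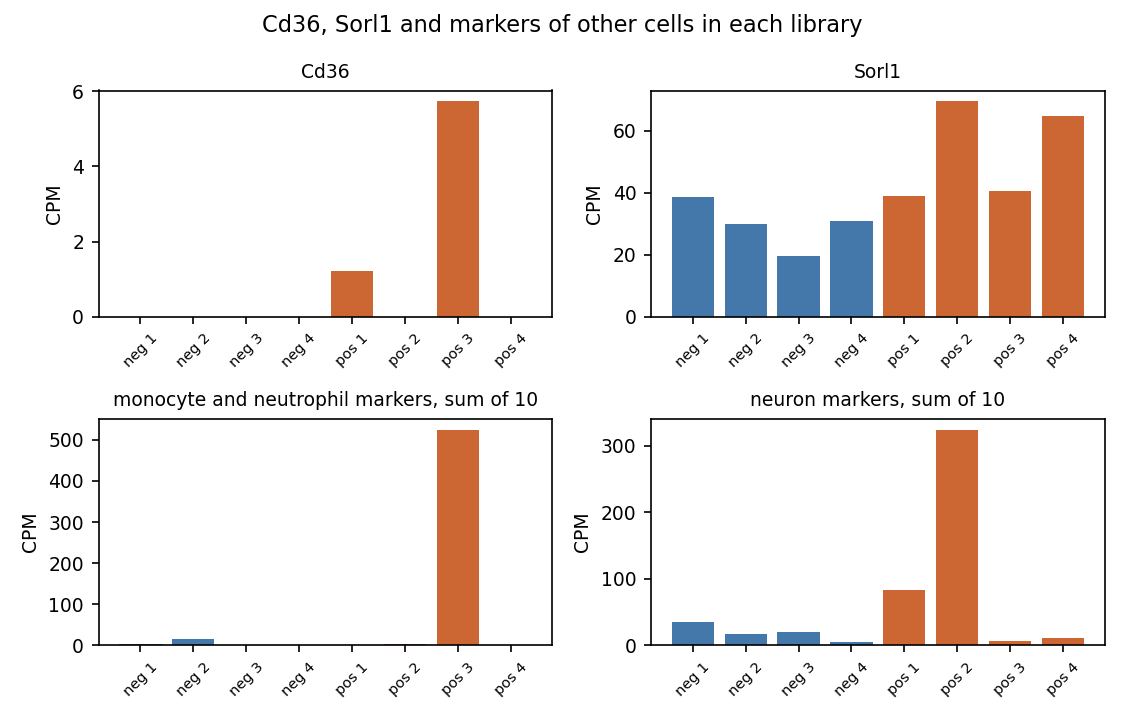
CPM of Cd36 and Sorl1 and the summed CPM of 10 monocyte and neutrophil markers and 10 neuron markers, as bars for the plasma-negative (neg) and plasma-positive (pos) libraries 1 to 4. Cd36 and the monocyte and neutrophil markers are both highest in plasma-positive library 3, and Sorl1 and the neuron markers are both highest in plasma-positive library 2.

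Mertk, a receptor tyrosine kinase that recognises phosphatidylserine through the bridging ligands Gas6 and protein S, had the highest level of the 10 genes and, among the tested members, the lowest coefficient of variation in plasma-negative libraries. Its gene (ENSMUSG00000014361, chromosome 2, 128698956 to 128802894, plus strand) was at 680.0, 653, 634 and 643 CPM in plasma-negative libraries 1 to 4 and at 594, 512, 633 and 511 CPM in plasma-positive libraries 1 to 4. The groups were separated only by the gap between 634 and 633 CPM, and plasma-positive libraries 2 and 4 lay furthest below. These are the 2 libraries highest in Mrc1 (12.1 and 15.3 CPM), and library 2 is also the highest in the neuron and oligodendrocyte marker sums (324 and 569 CPM). The part of such cells in the Mertk values was not tested. Means were 653 ± 20.0 and 563 ± 60.9 CPM (SD, n = 4 each), with coefficients of variation of 3.06% and 10.8%. The fold change was 0.862 (95% interval 0.752 to 0.989; log2 −0.21, SE 0.09). The edgeR unadjusted p was 0.0360 and the adjusted p 0.317, so Mertk did not pass the test.

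Timd4, a phosphatidylserine receptor of tissue-resident macrophages (ENSMUSG00000055546, chromosome 11, 46810800 to 46844332, plus strand), had 0 counts in all 8 libraries. The count floor allows at most 0.133 to 1.01 CPM in single libraries.

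Fold changes depended on exon length over all genes, and the members differ in length. Among 5200 genes of at least 32 CPM, Spearman's rho between log2 fold change and merged exon length was −0.457, a description across genes, which are not independent replicates. After length and GC content were fitted and removed in each library, rho was 0.0059. The gene counts also made up different shares of the read total behind the deposited RPKM values, 68.9 to 74.6% in plasma-negative and 81.4 to 84.2% in plasma-positive libraries.

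With that correction, edgeR called 0.588% of genes and again none of the members. Of the 3 longest members, 2 turned sign. Lrp1 (17717 bases of exon) went from −0.15 to 0.28 on the log2 scale (95% interval −0.01 to 0.57, adjusted p = 0.477). Stab1 (10288 bases) went from −0.12 to 0.10 (adjusted p = 0.850), and the shorter Dab2 from −0.07 to 0.02. Sorl1 (11321 bases) went from 0.84 to 1.09 (95% interval 0.47 to 1.72, adjusted p = 0.139). Mertk (4336 bases) went from −0.21 to −0.30 (adjusted p = 0.204) and Lrpap1 (4116 bases) from 0.24 to 0.09 (adjusted p = 0.821). So the Sorl1 and Mertk differences were larger in size, the Lrpap1 difference smaller, and no direction for Lrp1, Stab1 or Dab2 can be read from these libraries.

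**Figure D3:**
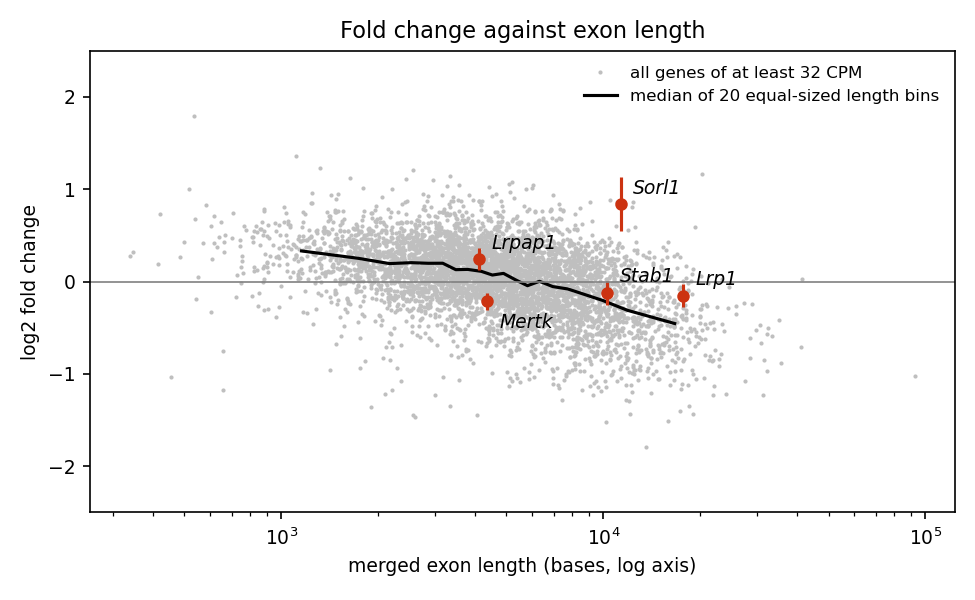
Log2 fold change, plasma-positive over plasma-negative, against merged exon length (log axis) for 5200 genes of at least 32 CPM (grey points, with 1 gene outside the axis), with the median of 20 equal-sized length bins as a line. Mertk, Lrpap1, Stab1, Lrp1 and Sorl1 are marked with their standard errors, and Sorl1 lies above and Mertk below the line at its length.

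**Figure D4:**
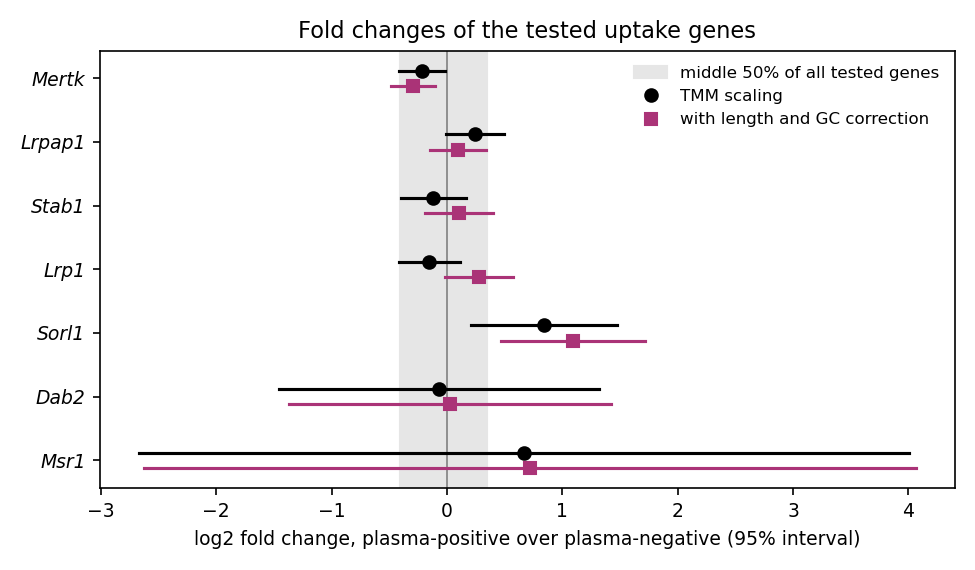
Log2 fold changes of the 7 tested members (points) with 95% intervals, with TMM scaling (black circles) and with length and GC correction (purple squares), against the middle 50% of all tested genes (grey band). The intervals of Sorl1 and Mertk lie off 0 in both fits, and those of Dab2 and Msr1 are the widest.

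Other tools called more genes overall and still none of the 7. DESeq2 called 6.49% of the 14863 genes it gave an adjusted p, with adjusted p-values of 0.0850 for Mertk and 0.0854 for Sorl1. Limma-voom with sample quality weights called 1.97% and limma on log2(RPKM + 1) 3.37%. EdgeR with the replicate number as a block called a smaller share than the main fit, 0.557%, and Sorl1 then had an adjusted p of 0.261.

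The wider set of uptake genes held 89 genes in 5 lists, of which 88 had a row in the table and 62 were tested. These lists too were chosen with earlier results of these data known. Of these 62, edgeR called 1 higher and 0 lower in plasma-positive microglia, beside the 1.41% of all tested genes called, with 40 of the 62 fold changes positive (50.4% over all tested genes) and a median of 0.16 on the log2 scale beside 0.01 for all tested genes. With length and GC correction the median was 0.09, beside −0.06, and none was called.

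Among 9 tested further scavenger receptors, none was called, 7 fold changes were positive and the median was 0.11, which was 0.05 with length and GC correction. Among 12 tested genes of the lipoprotein receptor and sortilin families, none was called, 7 were positive and the median was 0.19, which was 0.09 with the correction. The 12 tested phosphatidylserine uptake genes gave no call either, with 6 positive and a median of −0.02, which was 0.11 with length and GC correction. The 7 tested plasma protein and haem receptors gave no call, with 5 positive and a median of 0.56, which was 0.31 with the correction.

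All 22 genes of the clathrin machinery were tested, with 15 positive fold changes, a median of 0.12 (0.09 with the correction) and 1 call. That call was Hspa8, the chaperone that strips clathrin from coated vesicles (ENSMUSG00000015656, chromosome 9, 40800984 to 40810087). It was at 118, 93.9, 126 and 144 CPM in plasma-negative and 192, 175, 221 and 199 CPM in plasma-positive libraries 1 to 4. All plasma-positive libraries were above all plasma-negative ones, with means of 120.4 ± 20.6 and 197 ± 19.0 CPM (SD, n = 4 each) and a log2 fold change of 0.71 (SE 0.15, edgeR adjusted p = 0.0402). The difference kept about its size with length and GC correction (log2 0.65, adjusted p = 0.0813) and with the replicate block (log2 0.72, adjusted p = 0.0665), while the call was lost. Of 25 alternatives, 10 called Hspa8. Leaving out plasma-negative library 4 kept the call (adjusted p = 0.0319), and leaving out any of the other 7 libraries lost it, with adjusted p-values of up to 0.115. Over 6.09% of its exon length Hspa8 overlaps Snord14e. Among plasma-positive libraries it was highest in library 3, which had 525 CPM of monocyte and neutrophil markers. It was lowest there in library 2, which had the highest sum of oligodendrocyte markers, 569 CPM. The part of such cells in the Hspa8 values was not tested.

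A further 7 genes of these lists had an adjusted p from 0.05 to under 0.1, as did 1.66% of all tested genes. Of the 7, Axl, Gas6, Fcgrt, Itgb5 and Necap2 had positive and Scarf1 and Fcho2 negative fold changes. They did not pass the test, and they were chosen after their values were seen. Axl, the relative of Mertk that also binds Gas6, was at 1.28, 11.96, 10.6 and 7.40 CPM in plasma-negative libraries 1 to 4 and at 68.4, 46.9, 24.97 and 44.1 CPM in plasma-positive libraries 1 to 4. The groups did not overlap, with means of 7.81 ± 4.75 and 46.1 ± 17.8 CPM (SD, n = 4 each). The log2 fold change was 2.56 (SE 0.58, edgeR adjusted p = 0.0532), just short of the threshold. Over the alternatives its adjusted p ran from 0.000601 to 0.268, and it was under 0.05 in 10 of 25.

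Against Mertk, Axl was thus the minor receptor in these libraries in both groups. The ratio of Axl to Mertk in RPKM was 0.0016, 0.016, 0.014 and 0.0099 in plasma-negative libraries 1 to 4 and 0.099, 0.079, 0.034 and 0.074 in plasma-positive libraries 1 to 4. All plasma-positive ratios were above all plasma-negative ones, with means of 0.010 ± 0.0064 and 0.072 ± 0.027 (SD, n = 4 each). Gas6 itself was at 158 ± 9.50 and 221 ± 26.2 CPM, with a log2 fold change of 0.49 (SE 0.12, edgeR adjusted p = 0.0806), which was 0.27 (adjusted p = 0.449) with length and GC correction.

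Fcgrt, the neonatal Fc receptor that binds albumin and immunoglobulin G and recycles them, was at 129 ± 9.59 and 190.5 ± 22.3 CPM (SD, n = 4 each), with no overlap between the groups. Its log2 fold change was 0.56 (SE 0.13, edgeR adjusted p = 0.0596), and 0.31 (adjusted p = 0.389) with length and GC correction. Itgb5, an integrin subunit with a part in the uptake of apoptotic cells, was at 1587 ± 234 and 2367 ± 529 CPM (log2 fold change 0.58, edgeR adjusted p = 0.0927), and its groups overlapped. With length and GC correction the log2 fold change of Itgb5 was 0.41 (edgeR adjusted p = 0.308). Necap2, an adaptor-binding protein of clathrin coats, was at 137 ± 27.0 and 210.3 ± 33.3 CPM (log2 fold change 0.62, edgeR adjusted p = 0.0982), also with overlap. That of Necap2 was 0.44 with the correction (edgeR adjusted p = 0.295).

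Fcho2, which acts early in the formation of coated pits, was at 129 ± 48.3 and 66.5 ± 6.29 CPM (SD, n = 4 each), with overlap between the groups. Its log2 fold change was −0.95 (SE 0.25, edgeR adjusted p = 0.0986), and −0.59 (adjusted p = 0.426) with length and GC correction. Scarf1, a scavenger receptor, was at 6.55, 2.27, 1.34 and 1.68 CPM in plasma-negative libraries 1 to 4 and at 0, 0, 0.051 and 0.11 CPM in plasma-positive libraries 1 to 4, with at most 1 count in each of the latter. It passed the expression filter only through the plasma-negative libraries, so its edgeR adjusted p of 0.0532 is no support for a difference, and with no filter that p was 0.152.

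**Figure D5:**
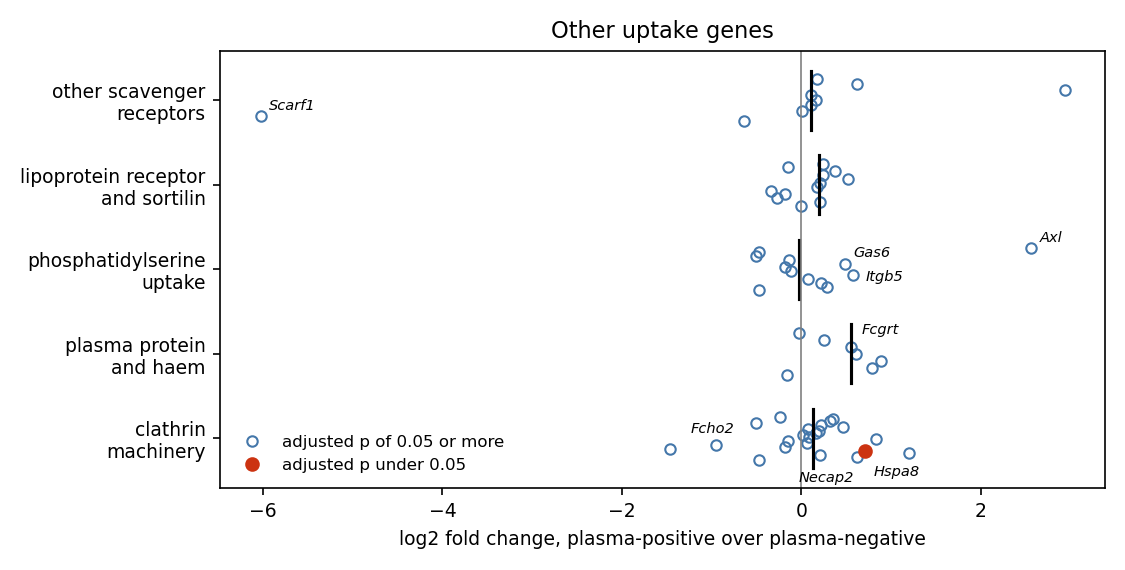
Log2 fold changes, plasma-positive over plasma-negative, of the 62 tested genes of 5 uptake lists, 1 point per gene, with a bar at each list's median. Hspa8 is the 1 filled point with an adjusted p under 0.05, while Axl lies far to the right with an adjusted p of 0.0532.

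The genes most like each member across libraries were ranked by Pearson's r of log2 CPM over the 8 libraries, among 8309 genes. For Lrp1 they were Lcor (r = 0.964), Camk2d (0.922) and Smc3 (0.902), and for Stab1 they were Gm47087 (0.969), Qk (0.947) and Gm26759 (0.946). Mertk was closest to Kat6a (0.979), Rasa2 (0.953) and Dock2 (0.951), and Lrpap1 to Rpp30 (0.983), Tbpl1 (0.966) and Fbxo9 (0.965). Dab2 was closest to Zfp598 (0.977), Vav2 (0.951) and Cyc1 (0.944), and Sorl1 to Phyhd1 (0.968), Mydgf (0.964) and Uba6 (0.957). No member was among the closest 3 of another. The points share libraries, depth, scaling and the 2 groups, so these values describe likeness in these 8 libraries and nothing else.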

How the data were processed

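Microglial RNA from 8 libraries (4 plasma-negative, 4 plasma-positive, grouped by title) was analysed. The authors deposited whole-number read counts per gene and, for the same genes, RPKM values, per the file headers. The submitters' processing notes name bcl2fastq, Trim Galore, STAR and HTSeq and build mm10, without versions, and per the file headers only top hits were kept. Strand in counting is not given in the sources used here. Values of 16 standard deviation columns were not used. Of the gene identifiers, 35546 (99.9%) were in GENCODE M21 (GRCm38), which gave exon lengths, and 15739 genes had 0 counts throughout.

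The main test used edgeR 4.0.16 (R 4.3.3) on the counts (TMM factors, default expression filter by group, quasi-likelihood F test of group, Benjamini-Hochberg adjustment, called at an adjusted p under 0.05). CPM use TMM factors, and logs use a prior count of 2. Length and GC content were removed per library by a loess fit (span 0.3) on genes of at least 32 CPM. Alternatives used limma 3.58.1 and DESeq2 1.42.0. The fits were tested on simulated data. The smallest library held 2963094 counts, and the 3-count floor reflects counting error alone: reads copied by PCR and lacking identifiers may repeat 1 molecule. Replicate pairs differed beyond sampling noise (chi-square per degree of freedom 23.8 to 66.2 over 12 pairs).

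All 10 members are named, and so is every called gene of the wider lists, up to 6 per list by p. The genes most like a member are the 3 with the highest r. Members and lists were chosen with earlier results of these data known. Exons of Stab1, Sorl1 and Dab2 overlap another gene over 1.09%, 1.63% and 2.87% of their length.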

Additional observations from a re-analysis of the deposited data

Results flagged for a closer look

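In a group of 4 libraries, a library was singled out when its gap to the nearest other was too large a share of the group's range by Dixon's test, as happens by chance in about 5% of groups. Among the 47 groups of values looked at, 6 had such a library. Msr1 was at 0 CPM in plasma-positive library 4, where the nearest of the other 3 had 1.65 CPM. Lrpap1 was at 228 CPM in plasma-positive library 3, where the nearest had 193 CPM. Necap2 was at 177 CPM in plasma-negative library 1, where the nearest had 126 CPM. The summed microglial markers were at 80195 CPM in plasma-negative library 4, where the nearest had 69419 CPM. The summed monocyte and neutrophil markers were at 525 CPM in plasma-positive library 3, where the nearest had 1.93 CPM. The summed pericyte and fibroblast markers were at 4.12 CPM in plasma-negative library 1, where the nearest had 0.175 CPM. These sums were higher in plasma-positive libraries 2 and 3, at 9.20 and 19.5 CPM, which were not singled out within their own group.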

How the results depend on the processing

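None of the 7 tested members was called under any of 25 alternatives, and 12 of the 173 fitted values had the opposite sign. Msr1 had no value with a mean count of at least 50 or when libraries were thinned. Signs turned for Stab1 (0.0076 and 0.0079 by limma on log2(RPKM + 1) and log2(RPKM + 0.1), 0.10 with length and GC correction, and 0.096 with that and the replicate block), for Lrp1 (0.28 and 0.27 with the correction, without and with the block) and for Dab2 (0.024 with the correction). Leaving out 1 library in turn gave Dab2 values from −0.53 to 0.28, and leaving out both libraries numbered 4, an alternative chosen after seeing the data, gave 0.01; the cause was not tested.

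The 187 genes called became 965 by DESeq2, 447 and 432 by limma on log2(RPKM + 1) and log2(RPKM + 0.1), and 78 with length and GC correction. They became 46 and 407 at adjusted p-values under 0.01 and 0.1, 66 to 203 when 1 library was left out, and 59 without both libraries numbered 4. The replicate block gave 74, and 11 together with the correction. The 1 call in the wider lists (Hspa8) became 0 with relative log expression scaling, the correction, the block, both together, without both libraries numbered 4 or at an adjusted p under 0.01. It became 3 with upper quartile scaling or at least 1 CPM in 4 libraries, 2 with no filter, a mean count of at least 50 or voom, 11 by DESeq2, 9 and 10 by limma on the RPKM scales, 8 at an adjusted p under 0.1, and 0 to 1 when 1 library was left out. An equal count of 1 was another gene with library totals only (Scarf1, lower), when thinned (Axl) and without plasma-negative 1 (Axl), plasma-negative 2 (Fcho2, lower) or plasma-positive 1 (Itgb5). The median of all genes moved to −0.11 with totals only, to 0.11 on log2(RPKM + 1) and to 0.16 on log2(RPKM + 0.1).

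Deviations of same-numbered libraries had correlations of 0.011 to 0.031 (0 over 0.1), with a mean of 0.017 beside −0.0056 for different numbers. Of the 4, 1 correlated best with its own number. Values this small cannot decide whether equal numbers mark the same animal, and the replicate block is not taken as a pairing. Msr1, Cd36, Colec12 and Timd4 were at 0 also in the largest library. Thinning every library to the smallest total moved Sorl1 from 0.84 to 0.54 (adjusted p = 0.566), Lrpap1 from 0.24 to 0.39 (adjusted p = 0.332) and the SE of Dab2 from 0.63 to 0.72, and it left Msr1 untested. Over all alternatives the log2 fold change ran from 0.54 to 1.09 for Sorl1, 0.09 to 0.39 for Lrpap1, −0.33 to −0.09 for Mertk and 0.10 to 2.38 for Msr1.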
